A study of Mus musculus with 4 samples.

Results

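Vitronectin (Vtn) and 8 genes that are widely read as marks of pericytes were followed in stromal cells sorted from the proximal and distal ducts of the mouse prostate. The 9 genes are Vtn, Pdgfrb, Rgs5, Cspg4, Mcam, Abcc9, Kcnj8, Higd1b and Anpep, chosen by name from 25555 genes that could be named in the libraries. Vtn entered the list with its difference between the regions already known, so that difference and those of the 8 markers are given as a description and carry no test. Of the 9 genes, 7 reached 1 FPKM (fragments per kilobase of transcript scaled to mapped fragments) in at least 2 of the 4 libraries and so entered the fit over all genes. Rgs5 and Higd1b did not.

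Pericytes wrap the endothelial tube of capillaries and small venules. Endothelial cells draw them in by releasing platelet-derived growth factor B, which acts on the receptor encoded by Pdgfrb, and they help to set vessel tone and to keep the vessel wall tight. Few of their markers are private to them: Pdgfrb and Cspg4 are also made by fibroblasts and other mesenchymal cells, whereas Rgs5, Kcnj8, Abcc9 and Higd1b mark mural cells more narrowly in several mouse organs. Vitronectin is a glycoprotein of plasma and matrix that is made mainly by the liver and binds integrins through an RGD motif. In mouse brain its mRNA is a marker of pericytes.

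The groups were stroma of the proximal ducts, which join the urethra, and stroma of the distal ducts, at the lobe tips, both from adult C57BL/6 mice. Cells were sorted as lineage-negative, CD24-negative, CD49f-negative and Sca-1-positive; the labels do not list the lineage markers, and they give no treatment for either group. Each region had 2 libraries, numbered 2 and 3, and no label says whether they came from separate or pooled animals, so a p-value reflects the scatter of these libraries alone, and that scatter may be technical. RNA was bulk, so fewer cells of a type and less RNA per cell cannot be told apart.

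The cells carried the RNA of fibroblasts. The summed level of 18 fibroblast genes, which include Pdgfra, Dcn and Lum, was 15584 and 16954 FPKM in proximal 2 and 3, against 13126 and 11182 FPKM in distal 2 and 3. Most of that gap lay in Gsn, chosen after its values were seen, at means of 8803 and 5791 FPKM, and in Dcn, at 3272 and 2412 FPKM in the proximal and the distal region. Over the 18 genes the median log2 difference was -0.00043 and 11 overlapped between the regions. Both proximal values lay above both distal values for 6 and below them for 1, against 12.9% and 8.67% of all tested genes. The largest differences were those of Dpt (1.46) and Fbln1 (0.99), both higher in proximal stroma. The 17 endothelial genes summed to 11.6 and 14.5 FPKM in proximal and 11.9 and 14.9 FPKM in distal libraries, with Pecam1 at no more than 1.56 FPKM, Cdh5 at no more than 2.79 FPKM and Kdr at no more than 2.50 FPKM in any library. The 12 epithelial genes summed to 65.4 and 413 FPKM in proximal 2 and 3, against 42.4 and 105 FPKM in distal 2 and 3. The epithelial sum was thus highest in proximal 3. Of 10 tested epithelial genes, 8 were higher in both libraries numbered 3 than in both numbered 2, against 20.3% of all tested genes.

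Vtn was the member that stood furthest apart between the regions. It lies on chromosome 11 at 78499091 to 78502324 (plus strand, mm10), and its single listed transcript, uc007kjk.2, measured 21.9 FPKM in proximal 2 and 27.2 FPKM in proximal 3, against 1.52 FPKM in distal 2 and 1.72 FPKM in distal 3. Both proximal libraries lay above both distal ones, and the libraries of a region were close to each other. The bounds that the authors deposited with each estimate ran from 20.5 to 23.3 FPKM (proximal 2) and 25.6 to 28.7 FPKM (proximal 3), against 1.16 to 1.89 FPKM (distal 2) and 1.36 to 2.09 FPKM (distal 3). The proximal mean was 24.5 ± 3.73 FPKM and the distal mean 1.62 ± 0.139 FPKM (SD over 2 libraries each), a 15.1-fold ratio of means. On the log2(FPKM + 1) scale, which understates the change of low genes, its difference was 3.28 ± 0.39 (SE), proximal minus distal. It was 3.18 between the libraries numbered 2 and 3.37 between those numbered 3. Ordered by this difference, Vtn was at rank 16 of 11213 genes. Its level exceeded that of 77.0% of the tested genes in proximal stroma and of 12.2% in distal stroma.

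The 250 bases before the RefSeq start of Vtn are shown because this gene had the largest difference of the 9, beside those of Abcc9 and Cspg4, the markers with the next largest differences and in opposite directions. They are RefSeq sequences of GRCm38.p6, 5′ to 3′ on the gene's own strand. The spans given in the text for these 3 genes are those of GENCODE and begin slightly before the RefSeq starts, so the last bases of each stretch lie inside those spans. Capitals mark matches, on either strand, to the TATA box TATAAA, the Sp1 site GGGCGG and the E-box CANNTG.
Vtn, chr11:78498870-78499119, plus strand: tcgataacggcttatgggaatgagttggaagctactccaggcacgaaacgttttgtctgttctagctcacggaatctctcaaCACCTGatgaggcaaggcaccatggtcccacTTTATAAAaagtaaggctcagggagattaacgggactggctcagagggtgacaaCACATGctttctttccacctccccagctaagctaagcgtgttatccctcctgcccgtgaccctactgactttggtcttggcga
Abcc9, chr6:142702275-142702524, minus strand: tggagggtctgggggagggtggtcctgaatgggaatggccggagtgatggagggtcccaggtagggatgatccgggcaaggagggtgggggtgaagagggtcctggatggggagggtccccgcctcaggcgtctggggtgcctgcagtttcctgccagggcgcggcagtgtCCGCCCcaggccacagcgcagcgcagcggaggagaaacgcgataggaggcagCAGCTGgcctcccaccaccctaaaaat
Cspg4, chr9:56864854-56865103, plus strand: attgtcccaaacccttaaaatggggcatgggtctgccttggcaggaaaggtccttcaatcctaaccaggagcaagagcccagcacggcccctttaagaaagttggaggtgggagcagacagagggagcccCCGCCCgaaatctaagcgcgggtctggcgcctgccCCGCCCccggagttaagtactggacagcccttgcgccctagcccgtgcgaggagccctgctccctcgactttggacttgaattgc
The Vtn stretch held TATAAA, which begins 135 bases before the start and overlaps its own match on the other strand, and E-boxes that begin 168 and 83 bases before it. It held no Sp1 site. Abcc9 held 1 Sp1 site and 1 E-box, and Cspg4 held 2 Sp1 sites. Of 32851 promoter stretches of this length, 12.4% held TATAAA, 32.7% an Sp1 site and 66.2% an E-box. AP-1 (TGANTCA), forkhead (TGTTTA) and ETS (ACCGGAA) letters were searched too and were found in 6.75%, 12.0% and 2.89% of all stretches. They were in none of these 3. The share of G and C was 50.4% for Vtn, 66.8% for Abcc9 and 60.4% for Cspg4, against a median of 52.4%. A match is a description of the letters and not a binding site.

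**Figure D1:**
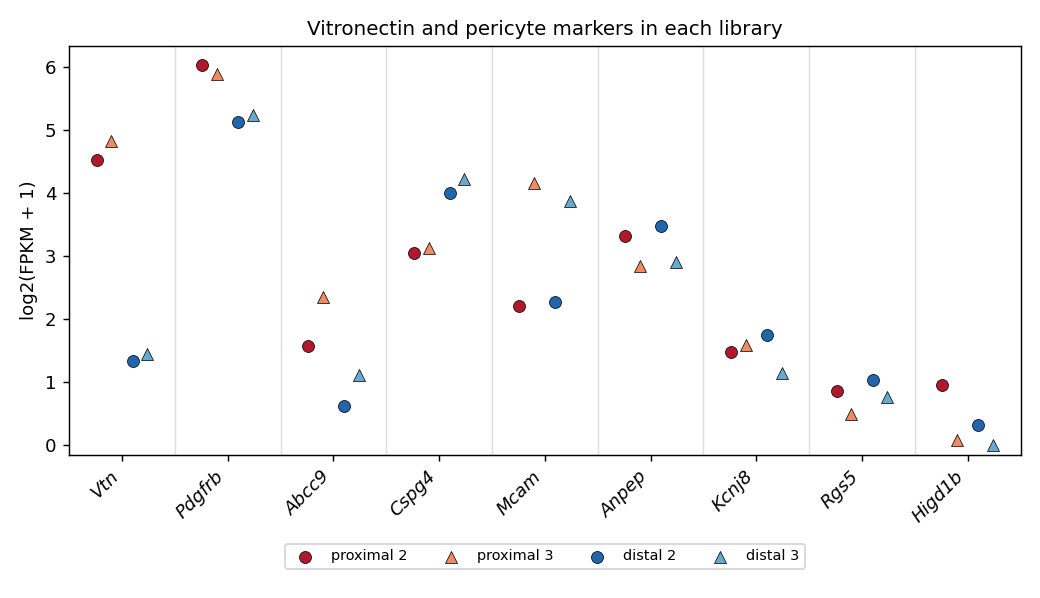
Level of Vtn and the 8 pericyte markers in each library as log2(FPKM + 1), with circles for the libraries numbered 2 and triangles for those numbered 3. Vtn, Pdgfrb and Abcc9 have both proximal points above both distal points, Cspg4 has them below, and Mcam separates by library number.

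The 8 markers did not follow Vtn as a set. Pdgfrb and Abcc9 had both proximal values above both distal values, Cspg4 had both below, and Mcam, Anpep, Kcnj8, Rgs5 and Higd1b overlapped between the regions. Their median log2 difference was 0.09, the same as the median of all tested genes, 0.09, while Vtn was at 3.28. Over all tested genes, both proximal libraries lay above both distal ones for 12.9% and below them for 8.67%. In the limma fit with region as its only term, 0 of the 7 tested members were called, where 0.0% of all genes were called, and without adjustment 354 genes had a p under 0.05, 253 of them higher and 101 lower in proximal stroma. The differences of these members were part of why they were followed, so nothing is read from these counts. Of the 9 members, 7 had a difference of the same sign within both library numbers. Kcnj8 and Mcam did not.

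**Figure D2:**
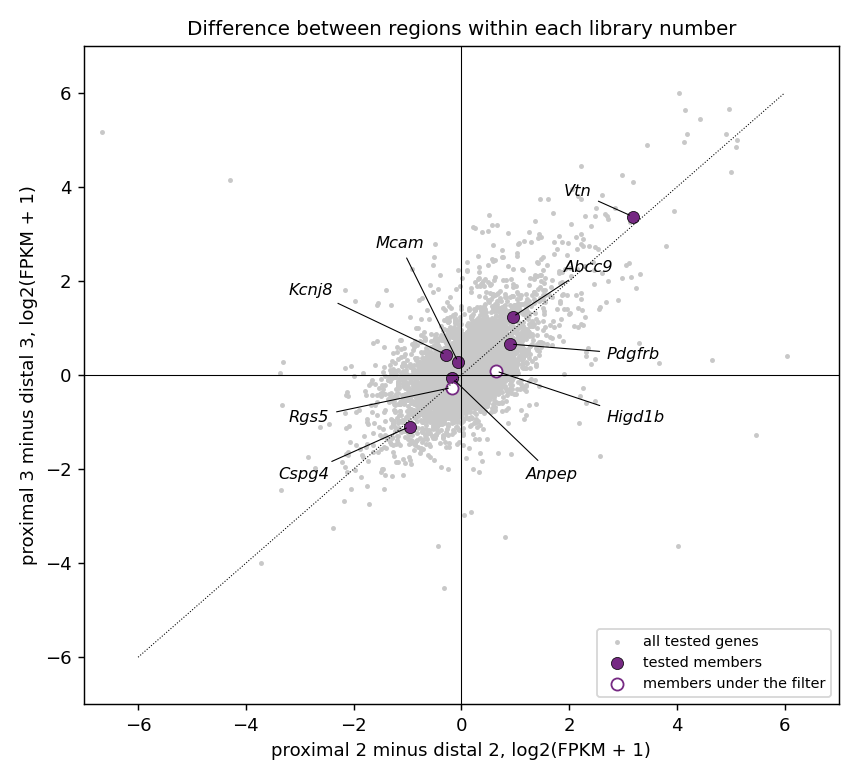
Difference between regions on the log2(FPKM + 1) scale within the libraries numbered 2 (horizontal axis) and within those numbered 3 (vertical axis), for all tested genes in grey and the 9 members in purple, open where a member fell under the filter. Vtn lies far along the diagonal at 3.18 and 3.37, while the other 8 lie between -1.10 and 1.24 on both axes.

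Pdgfrb, the receptor through which pericytes are recruited, was the most abundant of the 9 genes. It measured 64.3 and 58.4 FPKM in proximal 2 and 3, against 33.9 and 36.6 FPKM in distal 2 and 3. The regions did not overlap, and the spread within each was small beside the gap. The ratio of means was 1.74 and the log2 difference 0.78 ± 0.30 (SE), at 0.90 within number 2 and 0.66 within number 3. Pdgfrb lies on chromosome 18 at 61045150 to 61085061 (plus strand). Of its 3 listed transcripts, the pair that differ by a few bases in length carried all of the signal, and both were higher in each proximal library than in each distal one. Vtn per Pdgfrb, as a ratio of FPKM, was 0.340 and 0.465 in proximal libraries, against 0.0450 and 0.0470 in distal libraries, so Vtn changed by far more than its most abundant companion.

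Cspg4, the membrane proteoglycan NG2, went the other way. It measured 7.25 and 7.73 FPKM in proximal 2 and 3, against 15.1 and 17.7 FPKM in distal 2 and 3. Both proximal values were below both distal values. The log2 difference was -1.03 ± 0.36 (SE), with -0.96 within number 2 and -1.10 within number 3, and the distal mean was 2.18 times the proximal mean. Of its 4 listed transcripts a shorter one of 4905 bases was above 0 in the libraries numbered 2 and listed at 0 in those numbered 3. The 8050-base transcript measured 5.06 and 7.73 FPKM in proximal and 12.2 and 17.7 FPKM in distal libraries, again with no overlap. Cspg4 lies on chromosome 9 at 56865033 to 56899870 (plus strand).

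Abcc9 and Kcnj8 encode the sulfonylurea receptor SUR2 and the pore subunit Kir6.1, which together form the ATP-sensitive potassium channel of vascular mural cells. The genes neighbour each other on chromosome 6, Abcc9 at 142587862 to 142702315 and Kcnj8 at 142564837 to 142571614 (both minus strand). Abcc9 measured 1.97 and 4.11 FPKM in proximal 2 and 3, against 0.539 and 1.17 FPKM in distal 2 and 3. Its regions did not overlap, although the library number moved it as well, and its log2 difference was 1.09 ± 0.47 (SE), at 0.95 within number 2 and 1.24 within number 3. The ratio of means was 3.56. The log2 difference was 1.71 with a pseudocount of 0.1, 1.83 with one of 0.01 and 0.70 without proximal 3. All of its signal was assigned to 1 of 5 listed transcripts. Kcnj8 measured 1.78 and 1.99 FPKM in proximal 2 and 3, against 2.37 and 1.22 FPKM in distal 2 and 3. The proximal values lay between the distal ones, and the log2 difference of 0.08 ± 0.42 (SE) changed sign between number 2 (-0.28) and number 3 (0.43). The pancreatic partners of this channel family were lower still: Abcc8 did not exceed 0.0914 FPKM and Kcnj11, chosen after its values were seen, was listed at 0 in all 4 libraries.

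Rgs5 and Higd1b were close to absent. Rgs5, a brake on G protein signalling and one of the strongest pericyte markers in many mouse tissues, measured 0.821 and 0.406 FPKM in proximal 2 and 3, against 1.06 and 0.690 FPKM in distal 2 and 3. The deposited bounds of proximal 2 (0.548 to 1.09 FPKM) overlapped those of both distal libraries (0.764 to 1.35 and 0.465 to 0.915 FPKM). Those of proximal 3 (0.220 to 0.593 FPKM) overlapped the bounds of distal 3 and lay below those of distal 2. Vtn per Rgs5, as a ratio of FPKM, was 26.7 and 66.8 in proximal libraries, against 1.44 and 2.49 in distal libraries. Other genes of its family were far higher: Rgs2 measured 86.2 and 178 FPKM in proximal and 60.2 and 60.1 FPKM in distal libraries, and Rgs16 88.9 and 39.3 FPKM in proximal and 138 and 130 FPKM in distal libraries. Rgs9, at 3.12 and 4.30 FPKM in proximal and 1.36 and 0.614 FPKM in distal libraries, had the largest difference of 7 tested family members (log2 1.26 ± 0.43, SE). Higd1b, a small mitochondrial membrane protein related to hypoxia-induced Higd1a, measured 0.931 and 0.0636 FPKM in proximal libraries and 0.243 and 0 FPKM in distal libraries. The 0 carried no failure flag, as genes with a failed estimate were left out. Rgs5 lies on chromosome 1 at 169655501 to 169695813 and Higd1b on chromosome 11 at 102835849 to 102838040 (both plus strand).

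Mcam, Anpep, Rgs5 and Higd1b separated by library number and overlapped between the regions, Mcam with both libraries numbered 3 above both numbered 2 and the other three with them below. Mcam encodes the adhesion molecule CD146, found on mural and endothelial cells and on some epithelia. It measured 3.63 and 16.8 FPKM in proximal 2 and 3, against 3.81 and 13.7 FPKM in distal 2 and 3. Both libraries numbered 3 were above both numbered 2, by 1.94 on the log2 scale in proximal and 1.61 in distal stroma, while the difference between regions was 0.11 ± 0.87 (SE). Such a separation by number, in this direction, was seen for 20.3% of all tested genes. The epithelial genes moved with number 3 as well, by the sums given above, and their part in the level of Mcam was not tested. Anpep encodes aminopeptidase N (CD13), a surface peptidase of pericytes, fibroblasts and many epithelia. It measured 8.93 and 6.14 FPKM in proximal 2 and 3, against 10.2 and 6.47 FPKM in distal 2 and 3. Both libraries numbered 3 were below both numbered 2, as for 50.3% of all tested genes, and the difference between regions was -0.12 ± 0.44 (SE). Mcam lies on chromosome 9 at 44134469 to 44142727 (plus strand) and Anpep on chromosome 7 at 79821803 to 79861059 (minus strand).

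By level, the order in proximal stroma was Pdgfrb, Vtn, Mcam, Anpep, Cspg4, Abcc9, Kcnj8, Rgs5 and Higd1b. Mcam, Anpep and Cspg4, at means of 10.2, 7.53 and 7.49 FPKM, did not differ from each other beyond their spread. In distal stroma it was Pdgfrb, Cspg4, Mcam, Anpep, Kcnj8, Vtn, Rgs5, Abcc9 and Higd1b. Vtn thus ranked second among the 9 in proximal stroma and sixth in distal stroma, where its values lay between those of Kcnj8. The ranges of Abcc9 and Kcnj8 and of Rgs5 and Higd1b overlapped in proximal stroma, and those of Mcam and Anpep and of Rgs5 and Abcc9 in distal stroma. The other neighbours in each order did not overlap.

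Other mural cell genes gave the same mixed picture. Of 30 listed, 19 were tested and 0 were called in either direction (limma). Both proximal libraries lay above both distal ones for 6 and below them for 4, against 12.9% and 8.67% of all tested genes. The median log2 difference was 0.09. That median was -0.24 without proximal 2 and -0.19 without distal 3, against 0.54 without proximal 3 and 0.61 without distal 2. Notch3, the receptor that maintains arterial mural cells, measured 1.19 and 0.779 FPKM in proximal and 0.474 and 0.736 FPKM in distal libraries, and Ndufa4l2, a pericyte marker in brain and lung, was listed at 0 in all 4. Desmin (Des), a filament protein of muscle and mural cells, measured 128 and 83.5 FPKM in proximal and 115 and 88.2 FPKM in distal libraries. Its regions overlapped.

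The largest differences in that list went both ways. S1pr3, a receptor for sphingosine 1-phosphate, measured 27.2 and 89.9 FPKM in proximal and 5.37 and 13.2 FPKM in distal libraries, a log2 difference of 2.41 ± 0.71 (SE, limma adjusted p = 0.99991). Steap4, a metalloreductase, measured 16.7 and 39.1 FPKM in proximal and 41.3 and 77.5 FPKM in distal libraries (-1.11 ± 0.55). Enpep, the aminopeptidase A that cleaves angiotensin II, measured 2.35 and 1.65 FPKM in proximal and 4.67 and 5.73 FPKM in distal libraries (-1.05 ± 0.41). For both of these, each proximal library lay below each distal one.

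Smooth muscle genes are shared in part with mural cells. Of 17 listed, 12 were tested and 0 were called. Both proximal values lay above both distal values for 1 and below them for 2, against 12.9% and 8.67% of all tested genes. Acta2, smooth muscle actin, measured 53.5 and 22.9 FPKM in proximal and 75.8 and 42.7 FPKM in distal libraries. Tagln, an actin-binding protein, measured 75.4 and 18.8 FPKM in proximal and 106 and 48.6 FPKM in distal libraries. Both were higher in number 2 than in number 3 within each region. The smooth muscle myosin gene Myh11 measured 12.3 and 5.32 FPKM in proximal and 5.11 and 2.79 FPKM in distal libraries (log2 difference 0.93 ± 0.56), and the enteric-type actin Actg2 3.42 and 0.862 FPKM and 6.87 and 3.82 FPKM (-1.10 ± 0.59; both SE). The adaptor Sorbs2 averaged 10.6 ± 4.79 FPKM in the proximal and 5.06 ± 3.53 FPKM in the distal region (SD over 2 libraries each).

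**Figure D3:**
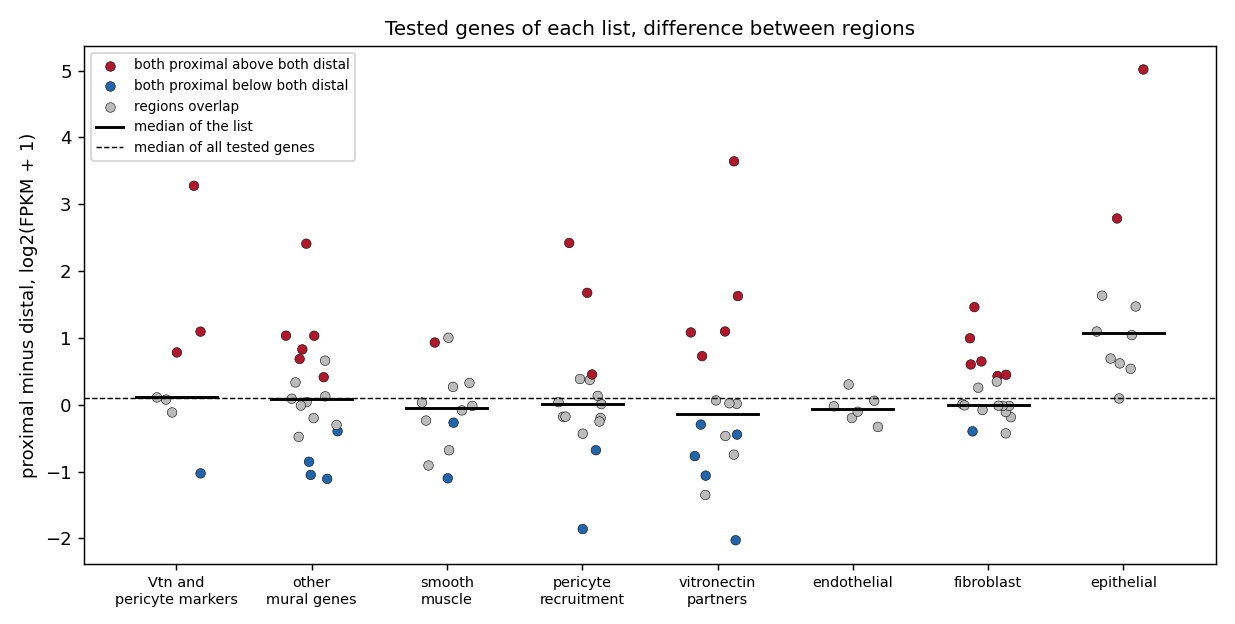
Difference between regions (proximal minus distal, log2(FPKM + 1)) for each tested gene of 8 gene lists, with red for genes whose proximal libraries both exceed both distal ones, blue for the reverse and grey for overlap. The black bars are list medians and the dashed line is the median of all tested genes, 0.09; Vtn is the highest point of its list at 3.28, and the genes of the other mural list spread from -1.11 to 2.41.

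Signals that recruit pericytes to endothelium or release them from it were read next. Of 18 genes, 15 were tested and 0 were called. Both proximal values lay above both distal values for 3 and below them for 2, against 12.9% and 8.67% of all tested genes. Pdgfb, the ligand of Pdgfrb that endothelium releases, measured 0.404 and 0.352 FPKM in proximal and 0.729 and 0.631 FPKM in distal libraries and fell under the filter. Angpt2, which loosens pericytes from vessels by opposing the receptor Tie2, measured 5.12 and 6.54 FPKM in proximal and 0.127 and 0.428 FPKM in distal libraries (log2 2.42 ± 0.40, SE, limma adjusted p = 0.560). Angpt1, the activating ligand made by mural cells, measured 2.51 and 3.76 FPKM in proximal and 0.447 and 0.136 FPKM in distal libraries (1.67 ± 0.40, SE). S1pr1, a receptor that in endothelium stabilises contact with pericytes, measured 0.859 and 1.71 FPKM in proximal and 6.94 and 7.37 FPKM in distal libraries (-1.86 ± 0.43, SE). Both angiopoietins had higher proximal values and S1pr1 lower ones. Angpt1 and Angpt2 were under 1 FPKM in both distal libraries and passed the filter through the proximal ones alone. Their part in the count of genes with both proximal values above was thus favoured by the filter, and nothing is read from it.

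Receptors and partners of vitronectin were followed as a list. Of 22 listed, 6 fell under the filter and 16 were tested. Of these, 0 were called. Both proximal values lay above both distal values for 5 and below them for 5, against 12.9% and 8.67% of all tested genes. Itgav, the alpha-v integrin chain of the vitronectin receptors, measured 17.2 and 31.1 FPKM in proximal and 26.5 and 59.0 FPKM in distal libraries. Itgb1 measured 175 and 169 FPKM in proximal and 188 and 237 FPKM in distal libraries, and Itgb3, the classical beta partner of alpha-v, 0.609 and 0.502 FPKM and 1.19 and 2.21 FPKM. For Itgb1 and Itgb3, each proximal library lay below each distal one. Itga8, whose product pairs with beta-1 and can also bind vitronectin, measured 2.93 and 3.70 FPKM in proximal and 0.341 and 0.447 FPKM in distal libraries, a log2 difference of 1.63 ± 0.38 (SE, limma adjusted p = 0.894). Itga8 passed the filter through the proximal libraries alone and Itgb3 through the distal ones alone. Their part in the counts above was thus favoured by the filter.

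Clusterin and thrombospondin 1 marked the ends of that list. Clu, an extracellular chaperone that like vitronectin restrains the terminal complement complex, measured 54.9 and 203 FPKM in proximal and 5.15 and 10.9 FPKM in distal libraries (log2 3.64 ± 0.72, SE, limma adjusted p = 0.704). Thbs1 measured 280 and 856 FPKM in proximal and 1304 and 3070 FPKM in distal libraries (-2.03 ± 0.70, SE). Plaur and Itgb5 were chosen after their values were seen. Plaur, the urokinase receptor that vitronectin also binds, measured 12.4 and 159 FPKM in proximal and 20.5 and 90.0 FPKM in distal libraries, and Itgb5 42.0 and 3.93 FPKM and 38.3 and 4.30 FPKM. Both of these separated by library number, in opposite directions.

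**Figure D4:**
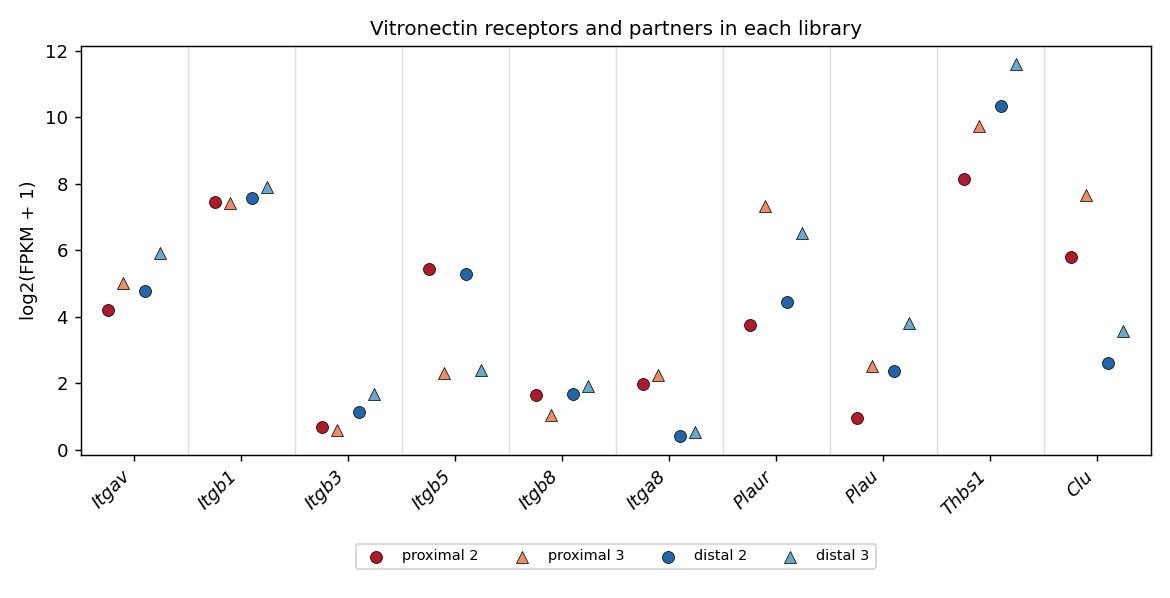
Level of vitronectin receptors and partners in each library as log2(FPKM + 1), with circles for number 2 and triangles for number 3. Itga8 and Clu have both proximal points above both distal points, Thbs1 has them below, and Itgb5 and Plaur separate by library number.

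No annotated gene overlaps Vtn on either strand. Among the other members, Abcc9 overlaps 5330439B14Rik and Mcam overlaps Gm10687, both on the opposite strand, and Anpep overlaps Gm44974. The libraries do not mark strand, so reads of these pairs cannot be told apart, although 5330439B14Rik was listed at 0 throughout. Its neighbour Sarm1, which ends at 78497754, measured 1.05 and 0.550 FPKM in proximal and 0.569 and 0.127 FPKM in distal libraries. Sebox, which begins at 78503447 on the other side, was listed at 0 in all 4 libraries. Tmem199 measured 5.40 and 3.09 FPKM in proximal and 3.74 and 2.60 FPKM in distal libraries (log2 0.31 ± 0.46), Slc46a1 5.45 and 3.10 FPKM and 2.86 and 1.52 FPKM (0.72 ± 0.48), and Poldip2 24.9 and 8.88 FPKM and 14.5 and 9.12 FPKM (0.36 ± 0.58; all SE). The largest of these neighbours' differences was 0.72, against 3.28 for Vtn.

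RNA of cell types outside the gate was compared with Vtn. Of 10 liver genes, Alb and Apoa2 were listed at 0 in all 4 libraries and Apoa1 did not exceed 1.17 FPKM. Trf alone passed the filter, at 27.1 and 35.4 FPKM in proximal and 31.9 and 66.3 FPKM in distal libraries. Blood cell genes summed to 2.12 and 25.3 FPKM in proximal and 9.78 and 7.99 FPKM in distal libraries, with Ptprc at no more than 0.120 FPKM and Cd3e at 0 throughout. Of the haemoglobin genes in that sum, Hba-a1 measured 0 and 10.4 FPKM in proximal and 3.48 and 2.28 FPKM in distal libraries. Hbb-bt measured 0 and 4.64 FPKM in proximal and 1.47 and 1.01 FPKM in distal libraries. Schwann cell and neuron genes summed to 11.7 and 19.2 FPKM in proximal and 20.7 and 27.3 FPKM in distal libraries, with Mbp under 1 FPKM. Within the epithelial list Psca measured 15.4 and 65.7 FPKM in proximal and 0 and 0.0441 FPKM in distal libraries, and Krt4 4.41 and 7.95 FPKM and 0.0169 and 0 FPKM. Psca and Krt4 were higher in the proximal library within both numbers, as Vtn was, and passed the filter through the proximal libraries alone. The median log2 difference of the 10 tested epithelial genes was 1.07, against 0.09 for all tested genes. The difference of Vtn was 3.18 within number 2 and 3.37 within number 3. The epithelial genes summed to 65.4 FPKM (proximal) and 42.4 FPKM (distal) within number 2, and to 413 and 105 FPKM within number 3. The part of epithelial RNA in the level of Vtn was not tested.

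The genes closest to Vtn in pattern were sought among 7392 tested genes with a mean of at least 5 FPKM, by the root mean square distance between profiles centred on their own mean over the 4 libraries. The 5 nearest were Gsta4, a glutathione transferase (distance 0.19 on the log2 scale), 6330403K07Rik (0.26), the peptidase inhibitor Pi15 (0.31), the tight junction gene Cldn10 (0.35) and the cytochrome P450 gene Cyp2f2 (0.37). Gsta4 measured 14.2 and 25.8 FPKM in proximal and 1.12 and 1.30 FPKM in distal libraries, and Cldn10 20.8 and 23.2 FPKM and 2.90 and 1.32 FPKM. None of these is a pericyte marker of the lists used here. The minimum of 5 FPKM kept Abcc9, Kcnj8, Rgs5 and Higd1b out of the search. It also kept out many of the other mural genes, among them Notch3, Ndufa4l2 and Enpep. For all of these the absence was fixed in advance. When all 8 markers were compared with Vtn directly, Abcc9 was nearest, at a distance of 1.11, with 1.62% of the 7392 genes closer. Pdgfrb was at 1.26, with 2.84% closer, and Cspg4 was farthest, at 2.15, with 96.3% closer.

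The genes nearest to Pdgfrb and Rgs5 in pattern were found in the same way. For Pdgfrb they were the histone gene Hist1h2bg (distance 0.016), the prohormone-processing carboxypeptidase Cpe (0.025), the immunoproteasome subunit Psmb10 (0.031), Pkp2 (0.059) and Hist1h2bq (0.069). Cpe measured 217 and 191 FPKM in proximal and 112 and 118 FPKM in distal libraries. For Rgs5, whose profile is nearly flat on this scale because its level is low, they were the matrix proteoglycan Bgn (0.015), Slco3a1 (0.016), Copg1 (0.016), Kctd3 (0.018) and Rasa1 (0.020). Each of these distances is over 4 libraries only. The lists nearest to Vtn, Pdgfrb and Rgs5 shared no gene. For Vtn this was fixed in advance, as it lay 1.26 from Pdgfrb and 1.77 from Rgs5, far beyond the distances within the lists. Nothing is read from it.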

How the data were processed

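RNA of 4 sorted stromal samples, 2 from proximal and 2 from distal prostatic ducts, was sequenced. Per the labels' protocols, cDNA came from the SMART-Seq v4 kit, which amplifies by PCR and does not mark strand. The submitters' processing notes name the mm10 genome and the tools bcl2fastq (1.8.3), TopHat2 (0.6) and Cufflinks (0.0.6). The deposited files hold FPKM per transcript with lower and upper bounds, and a coverage signal, per the file headers. They hold no counts, so depth is unknown. As a hint of relative depth, the median coverage per FPKM was 5.23 (proximal 2), 5.38 (proximal 3), 5.68 (distal 2) and 6.34 (distal 3). Cufflinks splits fragments among overlapping transcripts, so single transcripts are less certain than their sum. Between 1 and 10 FPKM the authors' bounds lay a median of 13.7% to 14.7% either side of the value, which covers estimation error within a library only.

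The 63241 listed transcripts were named by their position in GENCODE M21, an annotation of this same build. A name needed span overlap times length similarity of at least 0.8 with no close rival, both ends within 100 bp of exons of 1 gene, or a similarity of at least 0.5 with any other gene under 0.25. This named 86.7% of transcripts, with 96.2% of the summed FPKM. FPKM was summed per gene, and 7 genes with a failed or capped estimate were left out. Between 10101 and 11393 genes reached 1 FPKM in a library.

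Genes with at least 1 FPKM in at least 2 libraries (11213) were fitted as log2(FPKM + 1) with limma 3.58.1 in R 4.3.3. The model had region only, variance moderation with a mean trend, two-sided tests and Benjamini-Hochberg adjustment with a threshold of 0.05, and was checked on simulated data. With 2 libraries a region, the smallest p of an exact two-sided permutation test is 0.333. Naming, summaries and plots used Python 3.11.15 with pandas 2.3.3, numpy 2.4.6 and matplotlib 3.10.9. Promoter sequences, from RefSeq on GRCm38.p6, were matched by symbol for 7 of the 9 members.

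The members and the 15 gene lists were chosen with earlier results of these data known. The text names all members, the first 3 genes of each list and its 3 tested genes with the largest difference, the genes flanking Vtn, and the 5 genes nearest in pattern to Vtn, Rgs5 and Pdgfrb. Any other gene is marked as picked later, and a few of the listed genes are not reported here. Higd1c matched no named gene. The alternatives were other pseudocounts (0.1 and 0.01), filters, scalings, naming rules, a block on library number and each library left out.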

Additional observations from a re-analysis of the deposited data

How the results depend on the processing

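The fit with region alone called 0 genes, also with pseudocounts of 0.1 and 0.01, a filter of 1 FPKM in all 4 libraries, quantile normalization, median ratio scaling, no mean trend, stricter or looser naming and the highest transcript per gene. It called 92 genes without a filter on low values. With 1 library left out, where the lone sample of a region is assumed to vary like the other region, it called 0 to 40 genes: 0 without either proximal library, 40 without distal 2 and 26 without distal 3. Vtn was called without distal 2 and in no other of these fits. With the library number as a replicate block, 450 genes were called (303 higher and 147 lower in proximal stroma), 4.01% of those tested, among them 3 members, Vtn, Abcc9 and Cspg4, 7 of the 16 tested vitronectin receptors and partners, 3 of the 15 recruitment genes, 2 of the 19 other mural genes and 2 of the 12 smooth muscle genes. Of the 10 tested epithelial genes, 3 were called with this block. The libraries share only a number: no label says what it marks, and the deviations of same-numbered libraries from their region means correlated across genes at 0.815.

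The log2 difference of Vtn was 3.83 with a pseudocount of 0.1, 3.90 with 0.01, and 3.13 to 3.43 with 1 library left out. With pseudocounts of 0.1 and 0.01, Higd1b moved from 0.36 to 1.15 and 2.39, and Rgs5 from -0.22 to -0.49 and -0.56. Both lie near the floor, so their differences depend on this setting. The median of the 8 markers was then 0.12 and 0.13, against 0.11 for all tested genes with either. The other 8 markers had a median between -0.01 and 0.28 in the fits that leave out a library, and one of -0.08 after quantile normalization, where all tested genes had a median of -0.03 in place of 0.09. For the other mural genes it was -0.24 to 0.61 when a library was left out, and -0.002 after quantile normalization. Pdgfrb, Cspg4 and Abcc9 kept their sign in each of 14 alternatives. Their regions do not overlap, so a left-out library or another pseudocount could not reverse that sign. The filters and the block leave the difference itself unchanged. The kept sign is therefore not read as a mark of stability. Mcam ranged from -0.86 to 1.08, Kcnj8 from -0.22 to 0.38 and Anpep from -0.41 to 0.17. Leaving out a library leaves the library numbers unbalanced between the regions, so these ranges also hold differences between numbers. Within numbers 2 and 3 Mcam was at -0.06 and 0.28, Kcnj8 at -0.28 and 0.43 and Anpep at -0.17 and -0.06. The direction of Mcam and Kcnj8 is not fixed by these libraries, and that of Anpep rests on small differences. What lies behind the differences between numbers was not tested. Rgs5 and Higd1b lay at no more than 1.06 FPKM in any library, and without counts what depth allows at such levels is unknown.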
